A study of Mus musculus with 9 samples.

Results

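The sensors of double-stranded RNA are proteins that recognise paired RNA strands, as many viruses make, and tell them from the RNA of the cell. The 10 genes described here are PKR (Eif2ak2), the RIG-I-like receptors (Ddx58, Ifih1 and Dhx58), their adaptor (Mavs), the RNA editor Adar, 2 genes of the oligoadenylate synthetase (OAS) family (Oasl2 and Oas1a), Zbp1 and Tlr3. For short they are called sensors below, though Mavs is an adaptor and Adar an RNA editor. They are defined by name, not by a cut on their values in these data, and 8 of the 10 were found among the 15228 genes of the deposited table. Oas1a and Tlr3 were not among its rows, so that only their promoters are described and their levels were not analysed here.

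The cells had been sorted by flow cytometry as retinal ganglion cells (RGCs), with the surface protein Thy1 as the positive marker and other surface markers, leukocyte markers among them, as negative ones, from retinas of wild-type C57BL/6J mice of both sexes aged 6 to 8 weeks. The Ctrl group came from intact retinas, and the ONC group from retinas taken 3 d after optic nerve crush with an intraocular injection of PBS. The TPEN group came from retinas taken 3 d after the same crush, with TPEN (100 μM), which chelates mobile zinc, injected straight after the injury. No injection is stated for the Ctrl retinas, so that in ONC/Ctrl and TPEN/Ctrl the crush and the injection cannot be told apart. Below, changes after the crush are those after the crush together with its injection. Each of the 3 groups had 3 libraries, and no source used here states whether these came from separate mice, so that p-values measure only the spread between libraries.

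PKR is a kinase that is switched on by double-stranded RNA and by its protein activator PACT, and it then phosphorylates the translation factor eIF2α, which slows protein synthesis and starts the integrated stress response. RIG-I (Ddx58) and MDA5 (Ifih1) bind double-stranded RNA of different kinds in the cytosol and signal through MAVS on mitochondria to turn on type I interferon genes, while LGP2 (Dhx58) modulates both. Interferon in turn raises transcription of many of the sensors themselves, through response elements with paired GAAA letters near their starts. In the retina PKR was followed in the study as one of the kinases that phosphorylate eIF2α after nerve injury, and the comparison made here asks where its transcript stood among the other sensors.

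In short promoter windows the sensors differed in these letters. RefSeq promoters of GRCm38.p6, which reach from 250 bases before the start to 50 bases after it, were found for 8 of the 10 genes (none for Dhx58 and Zbp1), and both strands were searched for GAAANNGAAA and for GAAANGAAA. One or the other was present in 5 of the 8 genes (Eif2ak2, Ddx58, Ifih1, Adar and Oas1a), beside 7.27% of 27025 genes with a promoter. The windows of Eif2ak2, Ddx58 and Mavs are shown because they hold the gene with the largest rise of the tested sensors, a second sensor with such letters and the adaptor, which was not called in any comparison. Each runs 5′ to 3′ on the strand of the gene from 150 bases before the start to 30 bases after it, at chr17:78882543-78882722 (minus strand), chr4:40239796-40239975 (minus strand) and chr2:131233913-131234092 (plus strand), and capitals mark matches to either motif.
Eif2ak2: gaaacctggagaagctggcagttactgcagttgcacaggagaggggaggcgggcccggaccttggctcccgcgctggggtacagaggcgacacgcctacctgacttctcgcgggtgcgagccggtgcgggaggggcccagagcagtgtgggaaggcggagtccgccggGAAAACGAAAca
Ddx58: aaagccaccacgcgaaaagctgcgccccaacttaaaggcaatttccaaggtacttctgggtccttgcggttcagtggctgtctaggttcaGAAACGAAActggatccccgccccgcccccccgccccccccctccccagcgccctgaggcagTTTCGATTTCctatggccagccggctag
Mavs: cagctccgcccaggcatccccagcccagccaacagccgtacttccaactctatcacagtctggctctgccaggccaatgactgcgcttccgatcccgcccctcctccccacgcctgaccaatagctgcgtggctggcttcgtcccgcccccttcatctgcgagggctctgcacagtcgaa

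The match in Eif2ak2 lay from base 19 to base 28 after the start. Ddx58 had a match with 1 base between the repeats from base -60 to base -52 and another, on the opposite strand with 2 bases between them, from base 3 to base 12. Outside the stretch that is shown, Ifih1 had a match from base 33 to base 42, and 1 of the 3 starts of Adar a match from base 29 to base 37. Oasl2, which rose nearly as much as Eif2ak2, held neither motif, and neither did Mavs. The motif was present in 3.44% (2 bases between the repeats) and 3.17% (1 base) of 32851 promoters, and a match describes the letters in the window, not a bound site.

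The libraries held 19946993 to 23109754 reads, worked out from the deposited levels. RPKM, in which reads are divided by the exon length of the gene and the size of the library, allows levels to be compared between genes. The cells are called RGCs after their gate, and the study also stained sorted cells for the RGC protein RBPMS. By RNA, rod transcripts were the most abundant of the marker lists. In Ctrl, ONC and TPEN, 7 rod markers added up to 15252 to 16119, 13371 to 13688 and 14263 to 14486 RPKM. The sums were 364.1 to 374.1, 372.6 to 394.6 and 290.1 to 304.3 RPKM for 10 RGC markers. For 8 markers of Müller glia they were 552.8 to 572.5, 617.1 to 629.5 and 485.4 to 496.8 RPKM. The RGC factors Pou4f2 and Pou4f3 were not among the listed rows. Microglia and macrophages carry many of the sensors, and 16 listed markers of myeloid cells added up to 10.1 to 10.6, 77.4 to 80.8 and 38.7 to 41.7 RPKM in Ctrl, ONC and TPEN, with none of the 16 at 0 in any library. All 13 myeloid markers that were tested were upregulated in ONC/Ctrl and in TPEN/Ctrl, beside 4.58% and 3.45% of all tested genes. In TPEN/ONC 6 of them were downregulated, beside 1.21%. Several, such as Itgam (Ctrl mean 0.332 RPKM), passed the filter on mean level given below only through the crushed groups. For all 16 listed markers, every ONC library lay above every Ctrl library and above every TPEN library. The shares of all listed genes were 21.3% and 15.6%. None of 7 neutrophil markers and none of 7 T cell markers was among the listed rows. The myeloid markers Tyrobp and Ccr2 were not listed either, so a missing row does not show that the RNA was absent. In sorted bulk RNA a change in the share of a cell type and a change of RNA per cell cannot be told apart, and the part that myeloid RNA has in the changes of the sensors was not tested.

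Of the sensors, 7 of the 8 listed had every ONC library above every Ctrl library, beside 21.3% of all listed genes, and Mavs was the exception. Differences were tested with limma on log2(RPKM + 0.1) over the 13566 genes whose mean reached 0.5 RPKM, and a gene was called changed where the adjusted p was below 0.05 and the fold change reached 1.5. Of the 6 sensors tested in this way, 4 (Eif2ak2, Oasl2, Ddx58 and Ifih1) were upregulated in ONC/Ctrl, where 4.58% of tested genes were upregulated. Ddx58 and Ifih1 had Ctrl means of 0.387 and 0.358 RPKM, so they passed this filter only through their levels in the crushed groups. Dhx58 and Zbp1 lay below the filter. In the fit of all listed genes without it, 6 of the 8 were upregulated, Dhx58 and Zbp1 among them, beside 6.19% of genes. That fit covers only the genes listed in the deposited table, and how these came to be listed was not tested. Of them, 44 to 58 had 0 reads in a Ctrl library and 8 to 11 in a TPEN library, but 0 to 1 in an ONC library. The listing itself may thus favour genes detected in ONC, a limit on all counts without the filter. The median log2 fold change was 1.27 over the 6 tested sensors, beside 0.02 over all tested genes, and also 1.27 over the 8 without the filter.

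**Figure D1:**
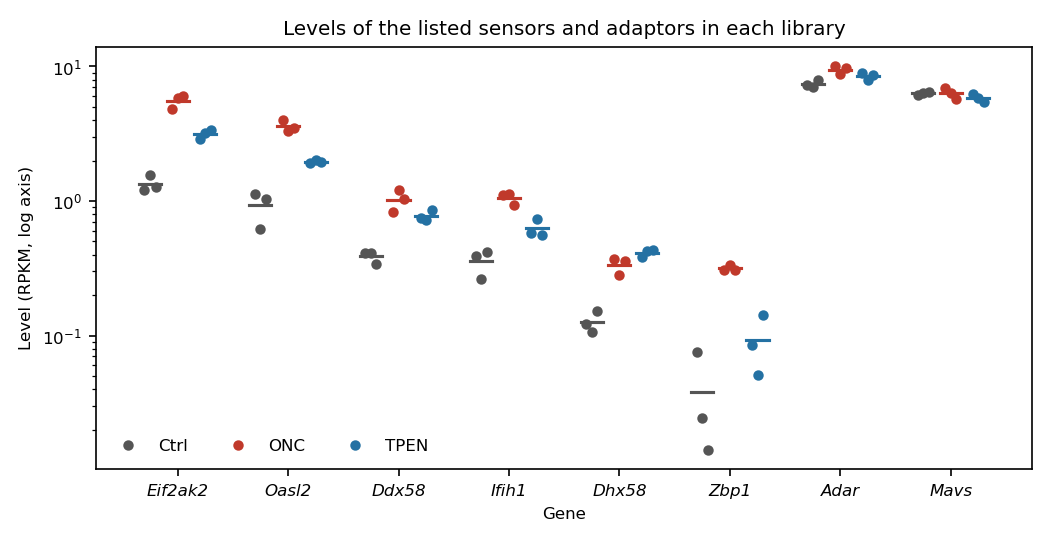
Level of each listed gene in each of the 9 libraries, in RPKM on a log axis, with Ctrl, ONC and TPEN libraries as points and group means as lines. The ONC libraries lie above the Ctrl libraries for every gene but Mavs, and Dhx58 alone among the genes that rose has its highest group mean in TPEN (0.413 RPKM).

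PKR mRNA rose after the crush and stood between the other groups with TPEN. Eif2ak2, on chromosome 17 (78852564 to 78882573, minus strand, GRCm38), was at 1.20, 1.55 and 1.27 RPKM in the Ctrl libraries. It was at 4.86, 5.80 and 6.08 RPKM in ONC and at 2.87, 3.21 and 3.34 RPKM in TPEN. No value of any of the groups overlapped with those of another, and the ONC mean was 4.16 times and the TPEN mean 2.34 times the Ctrl mean. The log2 fold change was 1.98 ± 0.12 (SE, n = 3 libraries a group, limma adjusted p = 3.3e-06) in ONC/Ctrl, -0.81 ± 0.12 (limma adjusted p = 0.0041) in TPEN/ONC and 1.18 ± 0.12 (limma adjusted p = 0.00017) in TPEN/Ctrl. Only 150 of the 13566 tested genes had a larger log2 fold change in ONC/Ctrl. Eif2ak2 shares 174 of its 5113 exon bases with Gm26637 on the opposite strand, a gene with 5 to 40 reads per library against 130 to 714 reads for Eif2ak2, and whether counting used the strand is not stated.

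Among the 8 listed genes PKR ranked 3 by level in every group, below the RNA editor Adar and the adaptor Mavs and above Oasl2. Its mean was thus the highest of the listed genes other than Adar and Mavs. In Ctrl, mean levels fell from Adar (7.41 RPKM) and Mavs (6.34 RPKM) to Eif2ak2 (1.34 RPKM), Oasl2 (0.928 RPKM), Ddx58 (0.387 RPKM), Ifih1 (0.358 RPKM), Dhx58 (0.127 RPKM) and Zbp1 (0.0382 RPKM). The only neighbours in this order whose libraries overlapped were Ddx58 and Ifih1. In ONC the values of Eif2ak2 (4.86 to 6.08 RPKM) overlapped with those of Mavs (5.77 to 6.93 RPKM), so that this pair was no longer set apart, while every ONC library of Eif2ak2 remained above the highest of Oasl2 (4.03 RPKM). Ifih1 with Ddx58 and Dhx58 with Zbp1 were the other neighbours that overlapped in ONC. In TPEN the order was that of Ctrl, again with overlap between Ddx58 and Ifih1 alone.

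By the size of the change, PKR had the largest gain in level, 4.24 RPKM from Ctrl to ONC, followed by Oasl2 (2.68 RPKM), Adar (2.08 RPKM), Ifih1 (0.700 RPKM), Ddx58 (0.638 RPKM), Zbp1 (0.278 RPKM) and Dhx58 (0.210 RPKM). It also had the largest log2 fold change of the 6 tested sensors, 1.98 ± 0.12 (SE) against 1.89 ± 0.18 for Oasl2. The order of these genes turned without Ctrl replicate 1 (1.91 for Eif2ak2, 2.04 for Oasl2) and without Ctrl replicate 3 (1.95 and 1.97). By the ratio of reads, Zbp1 had the larger value, as given with its levels further on, but from 9 reads in all of Ctrl.

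**Figure D2:**
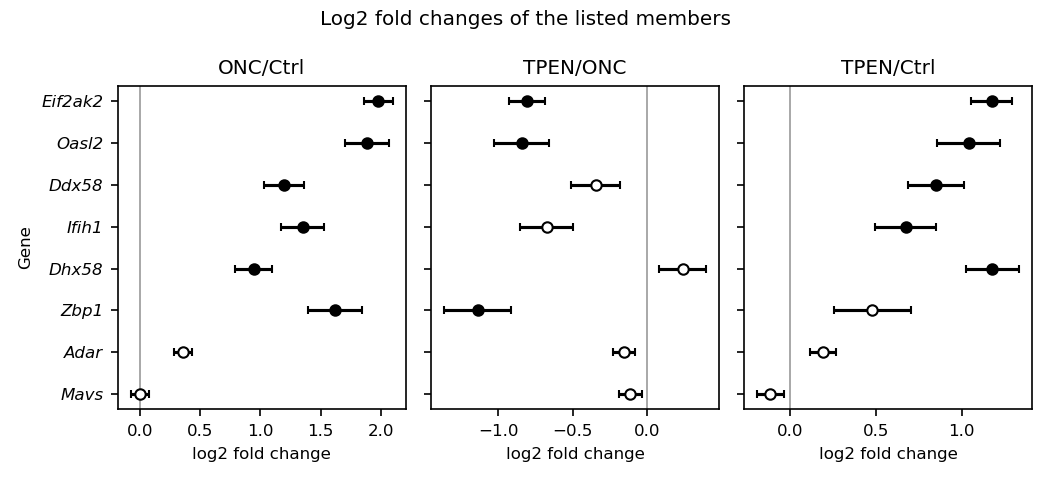
Log2 fold changes of the 8 listed genes in ONC/Ctrl, TPEN/ONC and TPEN/Ctrl on the log2(RPKM + 0.1) scale, with bars for the standard error and filled points for genes called changed. Dhx58 and Zbp1 are from the fit without a filter on low genes, and Eif2ak2 has the largest value in ONC/Ctrl (1.98).

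To ask whether PKR moved differently from each other sensor, the level of Eif2ak2 was divided by that of the sensor in each library, and these 7 ratios were compared on the log2 scale with an exact permutation test of any difference between the 3 groups (280 ways to divide the libraries), after 0.1 RPKM was added to both levels, and Benjamini-Hochberg adjustment over the 7. Each permutation p of a ratio is for the 3 groups together, not for the difference between 2 groups printed beside it. No pair of groups was tested alone, where a permutation of 3 libraries against 3 cannot give a p below 0.1. The ratio to Mavs went from a mean of -2.17 in Ctrl to -0.19 in ONC and -0.88 in TPEN, and its Ctrl, ONC and TPEN values did not overlap (exact permutation p = 0.0036, the smallest the test of 3 groups can give, adjusted p = 0.0083). The ratio to Adar rose by 1.63 ± 0.18 (SE) in ONC over Ctrl and the ratio to Ddx58 by 0.78 ± 0.12, both with the same exact permutation p and adjusted p as Mavs. For each of these 3 genes the ratio was higher in every ONC library than in any Ctrl or TPEN library, and for Ddx58 the log2 ratio changed by -0.46 from ONC to TPEN.

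For the 4 remaining sensors a difference between the groups did not pass the adjusted test. The ratio of Eif2ak2 to Oasl2 had means of 0.52, 0.61 and 0.65 in Ctrl, ONC and TPEN, with overlapping values, and ONC differed from Ctrl by 0.10 ± 0.32 (exact permutation p = 0.93, adjusted p = 0.93). The ratio to Ifih1 was higher in ONC by 0.63 ± 0.26 (exact permutation p = 0.14, adjusted p = 0.16), and it was 2.18 in Ctrl replicate 2 against 1.40 and 1.41 in the other Ctrl libraries. Without Ctrl replicate 2 the difference was 0.89 (exact permutation p = 0.021). With 1 RPKM added, which is above every Ctrl and TPEN level of Ifih1, it was also 0.89 (exact permutation p = 0.0071). With nothing added it was 0.47 (exact permutation p = 0.31). The ratio to Dhx58 was higher in ONC than in Ctrl by 1.04 ± 0.20 and changed by -1.04 from ONC to TPEN (exact permutation p = 0.036, adjusted p = 0.063). Without Ctrl replicate 2 the first difference was 1.21 (exact permutation p = 0.0036). With 1 RPKM added it was 1.24 (exact permutation p = 0.0036), but 1 RPKM is above every level of Dhx58. At that setting the log2 fold change in ONC/Ctrl was 1.49 for Eif2ak2 and 0.25 for Dhx58, so the ratio mostly followed Eif2ak2. With nothing added to the levels, a setting chosen after seeing the data, the difference was 0.65 (exact permutation p = 0.029, adjusted p = 0.050), with overlap between ONC and Ctrl.

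For Zbp1 the direction of the ratio was set by the added constant, and no change of the ratio can be read from it. The mean level of Eif2ak2 was 35.1 times that of Zbp1 in Ctrl, 17.6 times in ONC and 33.9 times in TPEN. With nothing added, the log2 ratio changed by -1.35 ± 0.71 from Ctrl to ONC with overlapping values (exact permutation p = 0.21, adjusted p = 0.29). With 0.1 RPKM added, which is above every Ctrl level of Zbp1, the difference was 0.36 ± 0.27 (exact permutation p = 0.050, adjusted p = 0.070). With nothing added, the differences of the ratios to Ddx58, Adar and Mavs were 0.67, 1.70 and 2.06, each with an exact permutation p of 0.0036.

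**Figure D3:**
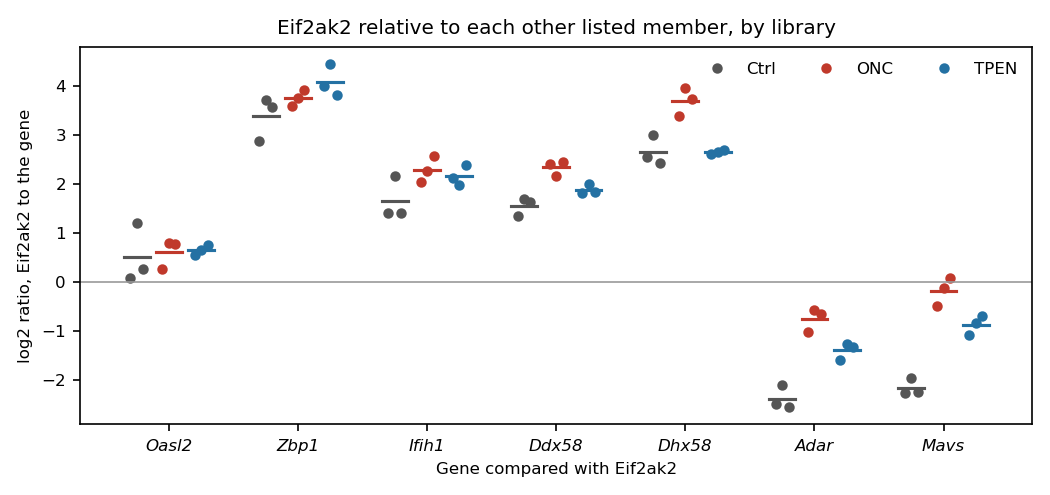
Log2 ratio of Eif2ak2 to each other listed gene, with 0.1 RPKM added to both, in each library of Ctrl, ONC and TPEN (points) with group means (lines). The ratios to Ddx58, Adar and Mavs are higher in ONC than in both other groups without overlap, and the ratio to Oasl2 overlaps between the groups (means 0.52 to 0.65).

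The 3 RIG-I-like receptors rose after the crush, and none of them was called in TPEN/ONC in the fit used for it. Ddx58, which encodes RIG-I, on chromosome 4 (40203773 to 40239828, minus strand), was at 0.411, 0.411 and 0.339 RPKM in Ctrl, at 0.827, 1.22 and 1.03 RPKM in ONC and at 0.745, 0.728 and 0.860 RPKM in TPEN. Both crushed groups lay above Ctrl, and ONC and TPEN overlapped. Its log2 fold change was 1.20 ± 0.16 (limma adjusted p = 0.00071) in ONC/Ctrl, -0.35 ± 0.16 (limma adjusted p = 0.25) in TPEN/ONC and 0.85 ± 0.16 (limma adjusted p = 0.0076) in TPEN/Ctrl.

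Ifih1, which encodes MDA5, on chromosome 2 (62595798 to 62646255, minus strand), was at 0.393, 0.265 and 0.415 RPKM in Ctrl, at 1.11, 1.13 and 0.939 RPKM in ONC and at 0.582, 0.739 and 0.559 RPKM in TPEN. The groups did not overlap. The log2 fold change was 1.35 ± 0.18 (limma adjusted p = 0.00059) in ONC/Ctrl. In TPEN/ONC it was -0.68 ± 0.18 and missed the threshold (limma adjusted p = 0.053), and among the alternatives it passed without the filter (adjusted p = 0.044), after quantile normalization (0.037), with the 6 libraries compared alone (0.048), with voom on reads (0.0013) and without Ctrl replicate 2 (0.037). In TPEN/Ctrl it was 0.67 ± 0.18 (limma adjusted p = 0.035), a call lost when Ctrl replicate 1 or 2, ONC replicate 1 or 2 or any TPEN library was left out (adjusted p up to 0.11, without TPEN replicate 2). The call was also lost after quantile normalization (log2 fold change 0.38, limma adjusted p = 0.18), with 1 RPKM added (0.26, limma adjusted p = 0.051) and with the 6 libraries compared alone (limma adjusted p = 0.081).

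Dhx58, which encodes LGP2, on chromosome 11 (100694884 to 100704271, minus strand), was at 0.123, 0.106 and 0.152 RPKM in Ctrl, at 0.372, 0.279 and 0.359 RPKM in ONC and at 0.382, 0.426 and 0.429 RPKM in TPEN, from 8 to 31 reads per library. In RPKM its lowest TPEN value was just above its highest ONC value (0.382 against 0.372 RPKM). The reads themselves overlapped, with 28, 21 and 27 in ONC and 25, 31 and 28 in TPEN. The reads pooled over libraries gave a ratio of 2.68 (95% interval 1.71 to 4.33, counting error only) in ONC/Ctrl and 1.23 (0.888 to 1.69) in TPEN/ONC. In the fit without a filter its log2 fold change was 0.94 ± 0.16 (limma adjusted p = 0.0020) in ONC/Ctrl, 0.24 ± 0.16 (limma adjusted p = 0.43) in TPEN/ONC and 1.18 ± 0.16 (limma adjusted p = 0.00082) in TPEN/Ctrl. After quantile normalization the value in ONC/Ctrl was 0.57 (limma adjusted p = 0.025), short of the fold change for a call.

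Mavs, the adaptor that both receptors signal through, was not called in any comparison. On chromosome 2 (131234063 to 131248025, plus strand), it was at 6.19, 6.38 and 6.45 RPKM in Ctrl, at 6.93, 6.35 and 5.77 RPKM in ONC and at 6.24, 5.83 and 5.49 RPKM in TPEN, with overlap between all groups. Its log2 fold change was -0.00097 ± 0.077 in ONC/Ctrl (limma adjusted p = 0.99), -0.11 ± 0.08 in TPEN/ONC (limma adjusted p = 0.43) and -0.12 ± 0.08 in TPEN/Ctrl (limma adjusted p = 0.38).

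Oasl2 came closest to PKR in size of change. It belongs to the OAS family, whose active members make a short oligoadenylate messenger on binding double-stranded RNA, and it lies on chromosome 5 (114896936 to 114912234, plus strand). Its levels were 1.13, 0.618 and 1.03 RPKM in Ctrl. They were 4.03, 3.29 and 3.5 RPKM in ONC, but 1.93, 2.01 and 1.94 RPKM in TPEN, without overlap between groups. The log2 fold change was 1.89 ± 0.18 (limma adjusted p = 8.0e-05) in ONC/Ctrl, -0.84 ± 0.18 (limma adjusted p = 0.024) in TPEN/ONC and 1.04 ± 0.18 (limma adjusted p = 0.0049) in TPEN/Ctrl. The fall in TPEN/ONC was no longer called after leaving out any single library of ONC or TPEN, with adjusted p from 0.056 (without ONC replicate 2) to 0.091 (without ONC replicate 1) and log2 fold changes of -0.91 to -0.76.

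Zbp1, a sensor of left-handed (Z-form) RNA that can start cell death through RIPK3, on chromosome 2 (173206612 to 173218923, minus strand), had 6, 2 and 1 reads in the Ctrl libraries, 25, 27 and 25 reads in ONC and 6, 4 and 10 reads in TPEN. The reads of ONC lay above those of both other groups, and those of TPEN and Ctrl overlapped. Pooled reads gave a ratio of 8.14 (95% interval 4.07 to 18.5, counting error only) in ONC/Ctrl, with a lower bound near the ratio of means of Eif2ak2 (4.16), 0.288 (0.167 to 0.476) in TPEN/ONC and 2.35 (1.02 to 5.85) in TPEN/Ctrl. In the fit without a filter, the added 0.1 RPKM reduced the log2 fold change to 1.62 ± 0.22 (limma adjusted p = 0.00067) in ONC/Ctrl. It was -1.14 ± 0.22 (limma adjusted p = 0.014) in TPEN/ONC, a call lost without ONC replicate 2 (adjusted p = 0.055), and 0.48 ± 0.22 (limma adjusted p = 0.20) in TPEN/Ctrl.

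Adar, which edits adenosine to inosine in double-stranded RNA and so keeps the RNA of the cell from being sensed, was the most abundant listed gene. On chromosome 3 (89715022 to 89753446, plus strand), it was at 7.27, 7.0 and 7.96 RPKM in Ctrl, at 10.1, 8.74 and 9.69 RPKM in ONC and at 8.90, 7.92 and 8.61 RPKM in TPEN. Its ONC values lay above Ctrl, and those of TPEN overlapped with both groups. The log2 fold change in ONC/Ctrl was 0.35 ± 0.07 (limma adjusted p = 0.0084), below the fold change of 1.5 needed for a call, and those in TPEN/ONC and TPEN/Ctrl were -0.16 ± 0.07 (limma adjusted p = 0.24) and 0.19 ± 0.07 (limma adjusted p = 0.12). Adar shares 1365 of its 8118 exon bases with Chrnb2 on the opposite strand, which was at 2.5, 2.64 and 2.49 RPKM in Ctrl, ONC and TPEN.

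With TPEN, 2 of the 6 tested sensors (Eif2ak2 and Oasl2) were downregulated in TPEN/ONC, beside 1.21% of tested genes, and 4 (Eif2ak2, Oasl2, Ddx58 and Ifih1) were upregulated in TPEN/Ctrl, beside 3.45%. Without the filter these were 4 of 8 (Zbp1 and Ifih1 in addition) beside 1.85%, and 5 of 8 (Dhx58 in addition) beside 4.50%. Every ONC library lay above every TPEN library for 4 of the 8 (Eif2ak2, Ifih1, Oasl2 and Zbp1), beside 15.6% of listed genes, and every TPEN library above every Ctrl library for 5 (Eif2ak2, Ddx58, Ifih1, Dhx58 and Oasl2), beside 19.0%. TPEN/ONC and ONC/Ctrl share the ONC libraries, so that a high ONC value raises the one and lowers the other.

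The share of the rise left with TPEN places PKR in the middle of the sensors. It is the TPEN level minus the Ctrl mean, as a percentage of the ONC mean minus the Ctrl mean, and it was 42.5% ± 5.8 (SD, n = 3 TPEN libraries) for Eif2ak2. The share was 38.5% ± 1.5 for Oasl2, 38.4% ± 14 for Ifih1 and 19.6% ± 16.5 for Zbp1 (10.7% without TPEN replicate 3), and 61.3% ± 11.3 for Ddx58. Dhx58 was at 136.0% ± 12.5, or above its ONC level, with TPEN libraries at 121.6%, 142.6% and 143.8%. For the sum of the 16 myeloid markers the share was 43.4% ± 2.2, within the range of the TPEN libraries of Eif2ak2 (36.0% to 47.3%), and whether the 2 are linked was not tested.

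**Figure D4:**
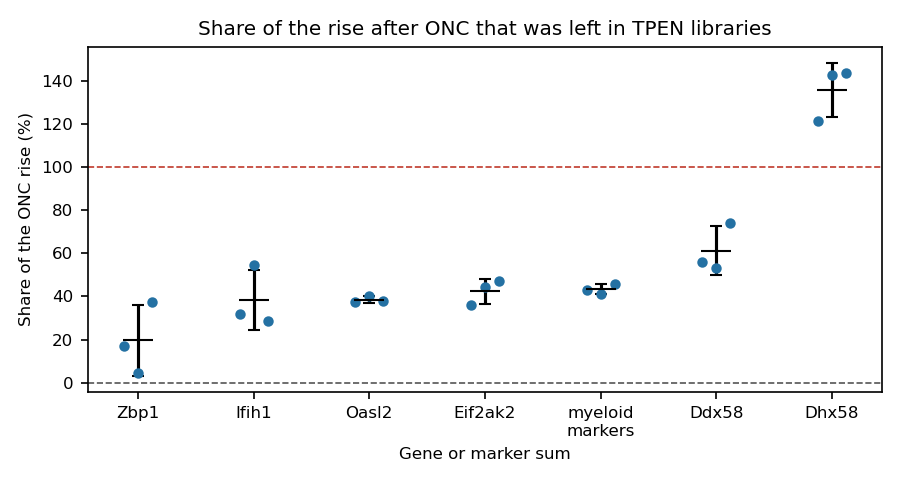
Share of the rise from Ctrl (0%, lower dashed line) to ONC (100%, upper dashed line) that was left in each TPEN library, with mean and SD, for the 6 listed genes called higher in ONC/Ctrl and for the sum of 16 myeloid markers. Dhx58 lies above 100% and the other genes between 19.6% and 61.3% on average.

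Genes around the sensors were counted next. Of 34 tested genes in 5 lists (other OAS genes, RIG-I-like receptor signalling, PKR partners and eIF2α, partners of ZBP1 and TLR3, and other double-stranded RNA binding genes), 3 (8.82%, beside 4.58% of tested genes) were upregulated in ONC/Ctrl and 2 (5.88%, beside 3.45%) in TPEN/Ctrl. In TPEN/ONC, 0 of the 34 were downregulated by limma, beside 1.21% of tested genes, while 9 were lower at an unadjusted p under 0.05, beside 12.3%, and voom on reads called 1, beside 1.61%. Voom called 3 and 2 of them in ONC/Ctrl and TPEN/Ctrl, beside 4.86% and 3.93%. The median log2 fold change of the 34 was 0.08 in ONC/Ctrl, -0.07 in TPEN/ONC and 0.02 in TPEN/Ctrl, beside 0.02, -0.01 and 0.01 over all tested genes. Without the filter, 38 listed genes gave 7 calls in ONC/Ctrl (18.4%, beside 6.19% of all listed genes), 3 in TPEN/ONC (7.89%, beside 1.85%) and 4 in TPEN/Ctrl (10.5%, beside 4.50%).

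Around PKR itself, 0 of 6 genes were called in any comparison by limma or by voom, a count that shares of 1.21% to 4.86% over all tested genes would leave near 0 for so short a list. At an unadjusted p under 0.05, 2 of the 6 were higher in ONC/Ctrl, 3 lower in TPEN/ONC and 1 higher in TPEN/Ctrl, beside 18.4%, 12.3% and 15.7% of tested genes. Prkra, the gene of the PKR activator PACT, was at 2.25 ± 0.36, 2.05 ± 0.45 and 2.08 ± 0.42 RPKM in Ctrl, ONC and TPEN (mean ± SD, n = 3 libraries), and Dnajc3, the gene of the PKR inhibitor p58IPK, was at 6.12 ± 0.18, 6.30 ± 0.28 and 5.65 ± 0.11 RPKM. The gene of eIF2α, Eif2s1, had a log2 fold change of 0.17 ± 0.08 in ONC/Ctrl (limma adjusted p = 0.16). Ppp1r15a, the gene of the GADD34 subunit that directs dephosphorylation of eIF2α, was at 27.6 ± 1.5, 34.9 ± 1.3 and 30.7 ± 3.3 RPKM, with an adjusted p of 0.010 in limma in ONC/Ctrl but a log2 fold change of 0.34, under the size for a call.

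Of 11 tested genes that regulate RIG-I-like receptors or signal below MAVS, 1 (Irf7) was upregulated in ONC/Ctrl (9.09%, beside 4.58% of tested genes). Irf7, the transcription factor that amplifies interferon production, was at 3.49 ± 0.38, 5.73 ± 0.36 and 4.28 ± 0.11 RPKM in Ctrl, ONC and TPEN, with a log2 fold change of 0.70 ± 0.09 (limma adjusted p = 0.00039). Tbk1 and Irf3, the kinase and the factor that MAVS acts through, had log2 fold changes of 0.09 and -0.11 in ONC/Ctrl. Below the filter, Ikbke, the gene of the kinase IKKε, was at 0.0303 ± 0.0212, 0.331 ± 0.040 and 0.0178 ± 0.0059 RPKM in Ctrl, ONC and TPEN, so that its TPEN mean lay below its Ctrl mean. Zc3hav1, an antiviral zinc finger protein that also aids RIG-I, was at 0.165 ± 0.045, 0.833 ± 0.207 and 0.385 ± 0.074 RPKM. In the fit without a filter both were called in ONC/Ctrl (log2 fold changes of 1.74 and 1.81, limma adjusted p = 7.6e-05 and 0.00024) and in TPEN/ONC (-1.87 and -0.93, limma adjusted p = 0.00021 and 0.027).

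Of 10 other OAS genes, Oasl1 was listed, below the filter. Oasl1 was at 0.0238 ± 0.0208, 0.417 ± 0.088 and 0.0672 ± 0.0254 RPKM in Ctrl, ONC and TPEN. In the fit without a filter it was upregulated in ONC/Ctrl (log2 fold change 2.06 ± 0.21, limma adjusted p = 9.2e-05) and downregulated in TPEN/ONC (-1.63 ± 0.21, limma adjusted p = 0.0017).

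Of 3 tested partners of ZBP1 and TLR3, 2 were upregulated in ONC/Ctrl and in TPEN/Ctrl, beside 4.58% and 3.45% of tested genes. Unc93b1, 1 of the 2, passed the filter only through the crushed groups. Without the filter the count was also 2 of 3 in both comparisons, beside 6.19% and 4.50% of listed genes. Unc93b1, which carries TLR3 to endosomes, was at 0.310 ± 0.198, 2.76 ± 0.23 and 1.62 ± 0.39 RPKM in Ctrl, ONC and TPEN (log2 fold change 2.91 ± 0.31 in ONC/Ctrl, limma adjusted p = 0.00015). Ripk1 was at 2.05 ± 0.21, 3.73 ± 0.22 and 3.38 ± 0.17 RPKM (0.83 ± 0.09 in ONC/Ctrl, limma adjusted p = 0.00018). The TLR3 adaptor Ticam1 was at 0.767 ± 0.149, 0.815 ± 0.139 and 0.565 ± 0.176 RPKM and was not called. Of 14 tested genes for other double-stranded RNA binding, editing or processing proteins, 0 were called by limma or by voom (beside 4.58% and 4.86% in ONC/Ctrl), 6 were higher in ONC/Ctrl at an unadjusted p under 0.05 (beside 18.4%), and the median log2 fold change was 0.09. Ddx60, a helicase below the filter that is linked to RIG-I, was at 0.0711 ± 0.0338, 0.339 ± 0.015 and 0.247 ± 0.008 RPKM in Ctrl, ONC and TPEN, with a log2 fold change of 1.38 ± 0.17 in ONC/Ctrl without the filter (limma adjusted p = 0.00030).

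Most interferon-stimulated genes that are no sensors rose after the crush. Of 18 tested, 16 were upregulated in ONC/Ctrl, beside 4.58% of tested genes. In TPEN/ONC 10 were downregulated, beside 1.21%, and in TPEN/Ctrl 13 were upregulated, beside 3.45%. The median log2 fold changes were 1.90, -0.71 and 1.29, beside 0.02, -0.01 and 0.01 over all tested genes. Genes low in Ctrl, such as Isg15, passed the filter through the crushed groups. Without the filter, 21 of 23 were upregulated in ONC/Ctrl (beside 6.19%), 15 downregulated in TPEN/ONC (1.85%) and 16 upregulated in TPEN/Ctrl (4.50%). Isg15, a ubiquitin-like protein, was at 0.298 ± 0.102, 3.17 ± 0.25 and 1.02 ± 0.42 RPKM in Ctrl, ONC and TPEN, and Bst2, which tethers budding viruses, at 0.383 ± 0.161, 3.46 ± 0.36 and 1.17 ± 0.51 RPKM. Mx1, an antiviral GTPase, was at 0.0355 ± 0.0421, 0.991 ± 0.138 and 0.599 ± 0.034 RPKM. Irf9, a subunit of the factor that binds the response elements, was at 3.53 ± 0.20, 7.51 ± 0.33 and 4.87 ± 0.25 RPKM. None of 20 genes of type I and type III interferons was among the listed rows, which does not show that their RNA was absent. Beside these counts, 13 of 13 tested myeloid markers were upregulated in ONC/Ctrl and 6 were downregulated in TPEN/ONC. Several of these markers also passed the filter only through the crushed groups, and the part of myeloid RNA in the change of this list was not tested.

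**Figure D5:**
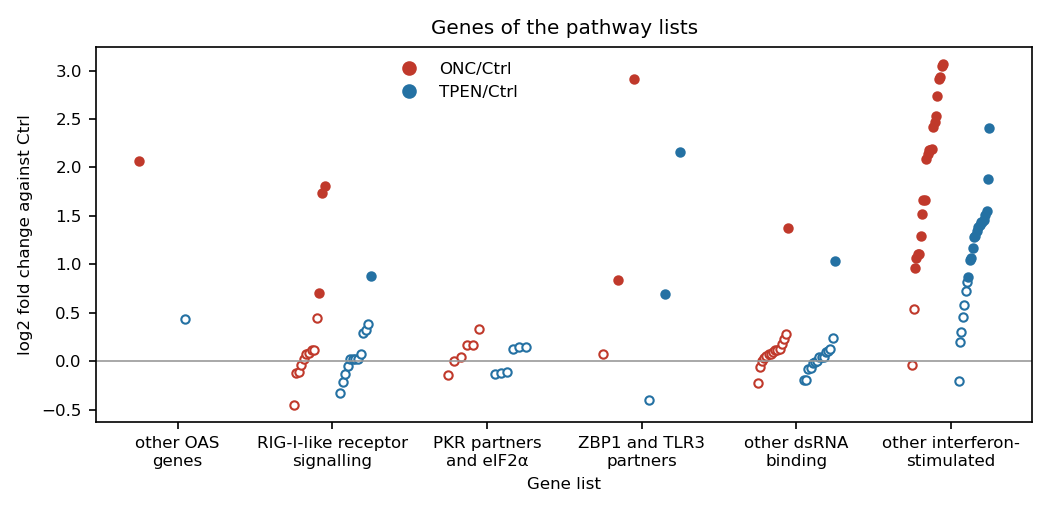
Log2 fold change of each listed gene of 6 lists in ONC/Ctrl (red) and TPEN/Ctrl (blue) on the log2(RPKM + 0.1) scale, with filled points for genes called changed and genes below the filter taken from the fit without it. The PKR partners lie near 0 (median 0.10 in ONC/Ctrl), and the other interferon-stimulated genes reach 3.07 (Isg15).

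The genes with the pattern most like PKR over the 9 libraries were not sensors. On log2(RPKM + 0.1), the highest Pearson correlations with Eif2ak2 among tested genes were those of Arhgdia (0.992), Lrrc2 (0.99), Pld4 (0.99), Itgam (0.99) and Chil1 (0.99), a description over libraries that share 3 groups. Itgam, the gene of the integrin CD11b and 1 of the myeloid markers, was at 0.332 ± 0.018, 5.45 ± 0.33 and 2.12 ± 0.15 RPKM in Ctrl, ONC and TPEN. Arhgdia had a smaller rise from a higher level, with 10.8 ± 0.6, 17.7 ± 0.9 and 14 ± 0.2 RPKM. Among the tested sensors, Ddx58 had the highest value (0.967, place 110 of the tested genes), followed by Oasl2 (0.920), Ifih1 (0.913) and Adar (0.829), and that of Mavs was -0.15.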

How the data were processed

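RNA of sorted cells was sequenced after a stranded library preparation with molecular identifiers. The authors trimmed reads with Trimmomatic 0.36 (submitters' processing notes), mapped them with STAR to GRCm38/mm10 and deposited RPKM values of 15228 genes. The deposited table also holds the authors' log2 fold changes, p-values and FDR from edgeR, which were not used. The counter, the annotation and the use of strand and identifiers are not given in the sources used here. Every RPKM value of up to 1000 reads was a whole multiple of 1 read (within 0.01 reads), which gave reads and totals, and 0 columns belonged to other samples. At this depth 3 reads, the limit that a count of 0 allows, are 0.130 to 0.150 RPM. Intervals cover counting error only.

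Groups came from the labels. limma 3.58.1 (R 4.3.3) with a variance trend was fitted over all 9 libraries on log2(RPKM + 0.1), with Benjamini-Hochberg adjustment over all genes tested. The method was tested on simulated data. The added 0.1 understates the change of low genes. Ratios were tested with exact permutation tests (scipy 1.17.1), and intervals of read ratios are exact binomial. Transcripts were compared with blastn 2.17.0, and no listed sensor but Adar (with Chrnb2) shared 300 bases at 95% identity with another gene. Text names all members, called genes of the lists (up to 4 a list by fold change) or those named for a role, and the 5 genes most like Eif2ak2. The members, lists and tests were chosen with earlier results of these data known. Alternatives were another pseudocount, filters, quantile normalization, fewer libraries, a replicate block, voom and, added later, ratios with nothing added. Some genes of the lists are not reported here.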

Additional observations from a re-analysis of the deposited data

How the results depend on the processing

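Of 366 values of member fold changes under alternatives, 333 kept direction and side of the threshold, 25 lost the call, 5 gained it and 3 turned sign (Mavs in ONC/Ctrl, which ranged from -0.065 to 0.066 with 1 library left out, and was above 0 without replicate 2 or 3 of Ctrl or replicate 3 of ONC). Every alternative kept the 3 calls of Eif2ak2. The counts of sensors called in ONC/Ctrl, TPEN/ONC and TPEN/Ctrl ranged from 4 to 4, 1 to 3 and 3 to 4 when 1 library was left out. With a mean of at least 1 RPKM, which tests fewer genes, 2 sensors passed in ONC/Ctrl, 2 in TPEN/Ctrl, and 10 interferon-stimulated genes in ONC/Ctrl. Without a filter 4 sensors were lower in TPEN/ONC, and 7, 3 and 4 genes of the pathway lists were called in the 3 comparisons. With 1 RPKM added, which shrinks the fold changes of low genes, Ddx58, Dhx58 and Zbp1 fell short of the fold change for a call in ONC/Ctrl (0.54, 0.25 and 0.34), and 2 sensors and 1 pathway gene were called in TPEN/Ctrl and 5 interferon-stimulated genes in TPEN/ONC. For the pathway lists in TPEN/ONC, 1 gene was called with the 6 libraries compared, 1 with voom and 0 to 1 with 1 library left out.

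The difference of the log2 ratio to Ifih1 between ONC and Ctrl ranged from 0.49 to 0.89 with 1 library left out and was 0.89 with 1 RPKM added. With that addition, above every Ctrl level of Ifih1, the exact permutation p over the 3 groups was 0.0071. The difference for Zbp1 followed the added constant, from -1.35 with nothing added (chosen after seeing the data) to 0.36 with 0.1 RPKM and 1.15 with 1 RPKM (0.11 to 0.53 with 0.1 RPKM and 1 library left out, with p over the 3 groups below 0.05 without Ctrl replicate 2 or TPEN replicate 3). The difference for Oasl2 ranged from -0.12 to 0.44 (-0.12 without Ctrl replicate 1, -0.03 without Ctrl replicate 3). The share left with TPEN ranged from 10.7% (without TPEN replicate 3) to 27.1% (without TPEN replicate 2) for Zbp1, 120 to 148% for Dhx58 and 34.7 to 41.8% for Oasl2 (36.7% after quantile normalization). The cause of the other changes was not tested.

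Libraries with the same replicate number did not deviate together (correlations of -0.062 to 0.027), so the numbers are not taken as pairs. With the replicate block the sensors called were 4, 2 and 3, with Ifih1 lost in TPEN/Ctrl (log2 fold change 0.67, limma adjusted p = 0.077). The ratio to Dhx58, higher in ONC than in Ctrl by 1.04, then had an exact permutation p of 0.11 over the 3 groups. Depth limits Zbp1 (1 to 27 reads) and Dhx58 most.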
